A study of Drosophila melanogaster with 3 samples.

Results

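The 6 fly genes Alg3, lace, tzn, yps, goe and CG5805 carried promoter peaks of the transcription factor Ets97D that were among the strongest outside ribosomal protein genes and held an ETS word near the summit. They were chosen for the signal of their promoter peaks in the optimal peak set and for an ETS word near the peak's summit. Both are therefore given as a description, and no test is made of either. The ETS word was taken here as CCGGAA on either strand, which contains the core GGAA that ETS domains contact. Near the summit was taken as within 50 bp, where all 6 held the word. The optimal set held 5595 peaks, 4118 of them promoter peaks, with a summit within 500 bp of a transcription start site (TSS) of a protein-coding gene. The 6 promoters ranked 9, 11, 12, 17, 22 and 23 among these promoter peaks. Of the 4118 promoter peaks, 149 (3.62%) held the ETS word within 50 bp of the summit. The choice of the 6 used an ETS word, so nothing is read from this share.

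The data are chromatin immunoprecipitation with sequencing (ChIP-seq) of Drosophila melanogaster embryos. There was 1 group of 3 biological replicates, whole embryos of the strain Delg-GFP collected at 0 to 24 h, males and females pooled, all carrying Ets97D with eGFP at its C terminus. An antibody to GFP precipitated the chromatin after sonication. What drives the fusion and whether the untagged protein was still present the sources used here do not give. No conditions were compared. A whole-embryo signal is an average over all cells, so the share of cells bound and the occupancy per cell cannot be told apart.

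Ets97D, also called Delg, corresponds to GABP alpha of mammals, also known as NRF-2 alpha. ETS factors bind DNA through a winged helix-turn-helix domain that recognises a GGAA core, and the bases on either side set how well a given factor binds. GABP is known in mammals for binding promoters of housekeeping genes and of genes for mitochondrial proteins, and Delg was linked in flies to mitochondrial gene expression and growth.

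The promoter stretches of 5 of the 6 genes are shown because they hold the ETS words on which the description turns. Each runs from -120 bp of the summit (negative values are upstream) towards the gene and ends at or before the 16th base from the TSS on, is written 5′ to 3′ on the strand of the gene, and was read from the NCBI sequence of the dm6 (Release 6) genome. Capitals mark the ETS word, which reads TTCCGG where it lies on the strand opposite to the gene. The stretches are 2L:15498874-15499094 on the plus strand for lace, 3L:20798493-20798660 on the plus strand for tzn, 3L:12125135-12125294 on the minus strand for yps, X:16751895-16752107 on the minus strand for goe and 3R:24787406-24787568 on the minus strand for CG5805.
lace: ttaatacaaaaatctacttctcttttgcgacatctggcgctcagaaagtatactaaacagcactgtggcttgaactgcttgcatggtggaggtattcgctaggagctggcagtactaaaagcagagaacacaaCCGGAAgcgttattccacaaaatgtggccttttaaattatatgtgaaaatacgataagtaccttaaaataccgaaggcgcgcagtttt
tzn: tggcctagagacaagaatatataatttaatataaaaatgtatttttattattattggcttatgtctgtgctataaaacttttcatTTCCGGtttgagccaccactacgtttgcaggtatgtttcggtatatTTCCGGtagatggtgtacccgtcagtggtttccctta
yps: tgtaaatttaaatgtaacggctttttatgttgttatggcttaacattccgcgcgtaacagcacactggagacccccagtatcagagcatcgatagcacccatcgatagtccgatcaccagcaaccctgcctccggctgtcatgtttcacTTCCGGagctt
goe: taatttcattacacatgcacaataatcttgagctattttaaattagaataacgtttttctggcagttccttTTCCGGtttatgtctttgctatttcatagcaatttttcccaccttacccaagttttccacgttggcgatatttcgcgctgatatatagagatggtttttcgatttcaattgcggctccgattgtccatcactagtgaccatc
CG5805: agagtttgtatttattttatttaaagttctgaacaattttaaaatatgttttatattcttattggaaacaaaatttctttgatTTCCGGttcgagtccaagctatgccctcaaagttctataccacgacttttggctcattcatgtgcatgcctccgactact

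Set in the orientation of the word itself, with 8 bases on either side, the flanks of these words can be compared. The stretches are 2L:15498999-15499020 (plus strand) for lace, 3L:20798570-20798591 and 3L:20798616-20798637 (minus strand) for tzn, 3L:12125132-12125153 (plus strand) for yps, X:16752023-16752044 (plus strand) for goe and 3R:24787472-24787493 (plus strand) for CG5805.
lace: gaacacaaCCGGAAgcgttatt
tzn upstream word: ggctcaaaCCGGAAatgaaaag
tzn downstream word: accatctaCCGGAAatataccg
yps: cgcaagctCCGGAAgtgaaaca
goe: gacataaaCCGGAAaaggaact
CG5805: gactcgaaCCGGAAatcaaaga

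The base before the word was A at 6 of the 7 words of the 6 promoters, the word of Alg3 included, and T at the word of yps. Over all 167 ETS words within 50 bp of the summit of a promoter peak, 38.3% were preceded by A. The base after the word was G at Alg3, lace and yps, which makes the longer word CCGGAAG, and A at the words of tzn, goe and CG5805. Among the 167 words 19.8% were followed by G, and 33 promoter peaks (0.801%) held CCGGAAG in the same window. The base before the word was examined after the sequences were seen.

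The strand and the place of the words varied among the 6. At Alg3 and lace the word lay on the strand of the gene, and the 5 words of tzn, yps, goe and CG5805 lay on the opposite strand. Of the 167 words at promoter peaks, 56.3% lay opposite to the gene of the nearest TSS. Positions are given for the centre of the GGAA core, along the gene, with negative values upstream. From the summit, the word was centred at -39.5 bp at Alg3, 16.5 bp at lace, -33.5 and 12.5 bp at tzn, 30.5 bp at yps, -47.5 bp at goe and -35.5 bp at CG5805. So it lay upstream of the summit at Alg3, goe and CG5805, downstream at lace and yps, and on both sides at tzn. From the TSS, the words stood at -107.5 bp at Alg3, -116.5 bp at lace, -65.5 and -19.5 bp at tzn, -124.5 bp at goe and -62.5 bp at CG5805. Where a gene has several annotated start sites (3 at tzn, 2 at goe and 2 at CG5805), the one nearest the summit was used. Measured from the summits of single replicates, the nearest word of each promoter lay between 10.5 and 48.5 bp away, with a median of 35.5 bp over the 18 values. At yps alone the word lay downstream of the TSS, centred at 6.5 bp in the annotated 5′ UTR.

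**Figure D1:**
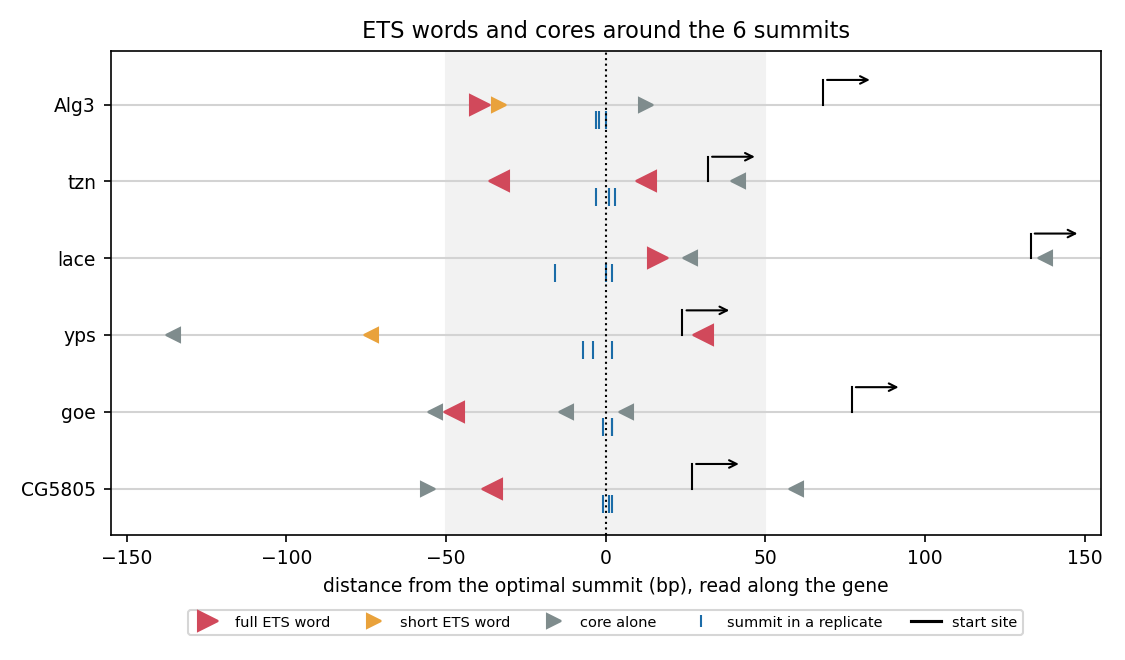
Positions of ETS words and cores around the summit of each of the 6 promoters; the horizontal axis is the distance from the optimal summit in bp, read along the gene, and each row is a gene. Triangles point right for the gene's strand and left for the opposite strand and mark the centre of each core. Red is CCGGAA, orange CGGAA and grey GGAA alone. Blue ticks are the summits in the 3 replicates, and each bent arrow is the gene's start site nearest the summit. The grey band is the window of 50 bp on either side. The red triangles lie on both sides of the summits, and 16 bp is the largest shift of a blue tick.

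Only tzn held more than 1 full ETS word within 50 bp of its summit. Its 2 words lay 46 bp apart on the same strand. Such a count of 2 or more was found at 18 of the 149 promoter peaks that held the word, or 0.437% of all. The choice of the 6 required an ETS word, so the 149 are the nearer background. Counting every GGAA core, shorter forms included, the 6 promoters held 13 cores within 50 bp of the summit, 4 on the gene's strand and 9 on the other. Of these 13, 7 were the cores of the full ETS words, 2 on the gene's strand and 5 on the other. The number and strand of cores at all promoter peaks were not counted. Each of the 6 holds a core there because the ETS word contains one; over all promoter peaks 51.2% do.

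Spacing between cores followed no single distance across the 6. At Alg3 the core of CCGGAA and that of a CGGAA lay 6 bp apart on the same strand, and a further GGAA followed at 46 bp. At goe a GGAA likewise lay 6 bp from the core of CCGGAA on the same strand, and further GGAA cores lay at 35 bp and then 19 bp. Same-strand cores 6 bp apart within 100 bp of the summit, a feature picked after the sequences were seen, occurred at 2 of the 6 promoters and at 83 promoter peaks in all (2.02%). At both Alg3 and goe 1 core of the pair belongs to the ETS word that the choice required, so the 2.02% is not a like background. The share among the 149 promoter peaks with the word was not counted. At lace the nearest core to the word lay 10 bp away on the opposite strand, and at CG5805 20 bp away on the opposite strand. At yps the next core was a CGGAA, 104 bp away on the same strand. Over the whole width of the peaks, 624 to 682 bp, lace and CG5805 each held 3 full ETS words, tzn held 2, and Alg3, yps and goe held 1. The median width of promoter peaks was 450 bp. Words over whole peaks were not counted for the other promoter peaks, so these counts have no background.

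Among the enzymes of lipid and glycan synthesis, Alg3 encodes a mannosyltransferase that extends the lipid-linked precursor of N-glycans. Alg3 (FBgn0011297, 2R:23705439-23709792, minus strand) had its peak at 2R:23709516-23710174, with the summit at -68 bp from its single TSS and a signal of 6353 in the optimal set, which ranked 11 of 5595 peaks. In replicates 1, 2 and 3 the deposited signals were 2067, 2106 and 2228. Divided by the median of the 5595 strongest regions of each replicate, which puts the replicates on 1 scale and is called the relative signal here, these were 39.4, 39.6 and 36.8, a mean of 38.6 ± 1.57 (SD, n = 3). The rank within a replicate's own list was 11, 11 and 12, so the place of Alg3 hardly moved.

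The gene lace encodes a subunit of serine palmitoyltransferase, the enzyme that starts sphingolipid synthesis. Its peak (lace, FBgn0002524, 2L:15499127-15505018, plus strand) covered 2L:15498758-15499439, with the summit at -133 bp, the farthest upstream of the 6, and a signal of 5850 (rank 14). The deposited signals were 1986, 1796 and 2134 in replicates 1, 2 and 3, and the relative signals were 37.9, 33.8 and 35.2 (mean 35.6 ± 2.08, SD, n = 3). Replicate 2 was the lowest on both scales, and there the summit of lace lay 16 bp upstream of the optimal summit. At the other promoters the summits of single replicates stayed within 7 bp of the optimal one.

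The yps gene encodes a Y-box protein that binds mRNA in the germ line. Its peak (yps, FBgn0022959, 3L:12121274-12125150, minus strand) covered 3L:12124749-12125372, with the summit at -24 bp and a signal of 5284 (rank 20). In replicates 1, 2 and 3 the deposited signals were 1640, 1833 and 1877, and the relative signals were 31.3, 34.5 and 31.0 (mean 32.2 ± 1.93, SD, n = 3). Replicate 2 stood above the other 2 on the relative scale only.

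The goe gene (gone early, FBgn0027528, X:16727304-16751910, minus strand) encodes a protein of the M13 family of neprilysin-like metallopeptidases and is known from germ cell differentiation. Its peak covered X:16751646-16752288 at the upstream one of 2 annotated start sites, with the summit at -77 bp and a signal of 4379 (rank 30). The other TSS, at X:16746082, had no peak of the optimal set. The deposited signals were 1402, 1469 and 1546 in replicates 1, 2 and 3, and the relative signals were 26.7, 27.6 and 25.5 (mean 26.6 ± 1.05, SD, n = 3). With a coefficient of variation of 3.93%, goe had the smallest relative spread of the 6.

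CG5805 (FBgn0039223, 3R:24784552-24787421, minus strand) encodes a protein of the SLC25 family of mitochondrial carriers, which move metabolites across the inner membrane. Its peak covered 3R:24787109-24787769, with the summit at -27 bp and a signal of 4333 (rank 31). The deposited signals were 1463, 1517 and 1386 in replicates 1, 2 and 3, and the relative signals were 27.9, 28.5 and 22.9 (mean 26.4 ± 3.09, SD, n = 3). CG5805 was the only one of the 6 whose deposited signal was lowest in replicate 3, and its coefficient of variation, 11.7%, was the highest of the 6.

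At tzn (FBgn0037024, 3L:20798645-20800081, plus strand) the peak covered 3L:20798290-20798945, with the summit at -32 bp and a signal of 5900 (rank 13). In replicates 1, 2 and 3 the deposited signals were 1994, 1935 and 2024, and the relative signals were 38.0, 36.4 and 33.4 (mean 35.9 ± 2.34, SD, n = 3). Replicate 3 was thus highest on the deposited scale and lowest on the relative one. Counted apart, the deposited signal was highest in replicate 3 at 5 of the 6 promoters. The same held at 17 of the other 19 promoters among the 25 strongest. The relative signal was lowest in replicate 3 at 5 of the 6 and 12 of the other 19. Of the 6, Alg3, tzn, yps and goe showed both, and for the other 19 it was not counted how many did. The median of the 5595 strongest regions was 60.6 in replicate 3, against 52.4 in replicate 1 and 53.2 in replicate 2, and the part of this scale in the order of the replicates was not tested.

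**Figure D2:**
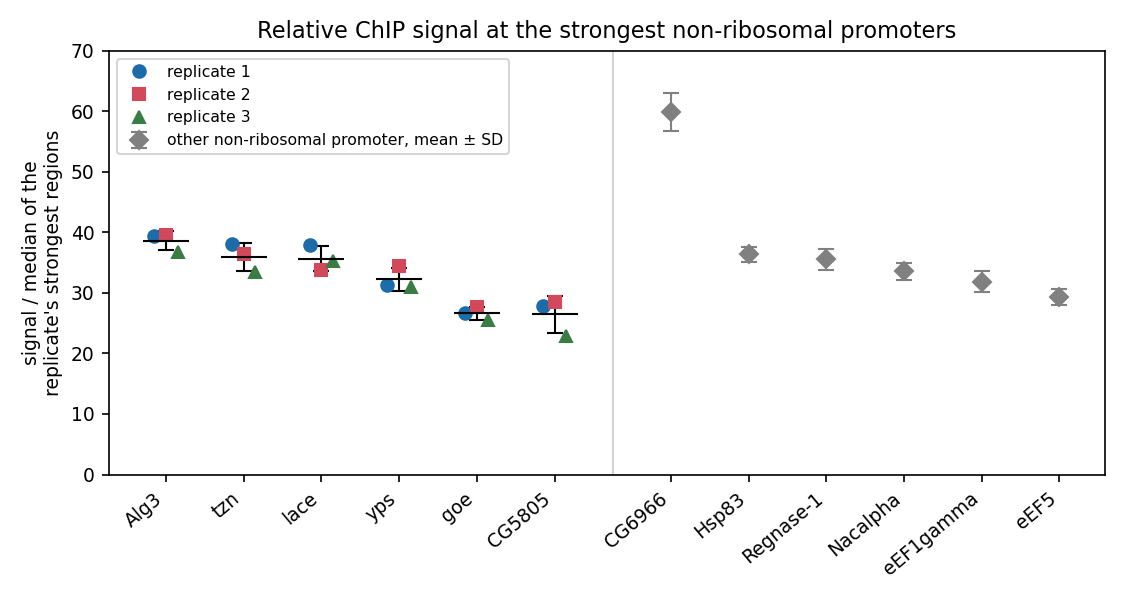
Relative signal, the deposited signal divided by the median of the replicate's 5595 strongest regions, at the 6 promoters (left, coloured points for replicates 1 to 3, black bar and whiskers for mean ± SD) and at the other non-ribosomal promoters among the 25 strongest (right, grey diamonds, mean ± SD, n = 3). The means of the 6 run between 26.4 at CG5805 and 38.6 at Alg3, and among the 6 CG5805 shows the widest spread.

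In order of mean relative signal, the 6 were Alg3, tzn, lace, yps, goe and CG5805. The median of the 6 means was 33.9. The replicate values of Alg3, tzn and lace overlapped, as did those of yps with both tzn and lace, and those of goe and CG5805. The lowest replicate value of yps, 31.0, lay above the highest value of goe, 27.6, and of CG5805, 28.5. Since the peaks were chosen by this signal, the order is given without a test. The sequence within 100 bp of each summit was unique on the chromosome arms 2L, 2R, 3L and 3R and chromosomes 4, X and Y. None of the 166 stretches of 36 bases per promoter recurred there exactly, and other sequences of the genome were not searched.

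The promoters just outside the range of the 6 show how the choice fell. Over all promoter peaks the median signal was 173.4, with 213.5 for the 149 that held the word and 171.9 for the 3969 that did not. Below CG5805 the next promoter peak was that of the ribosomal protein gene RpL37A (signal 4270), and above Alg3 stood the peak shared by CG3776 and RpL19 (signal 6672), both without an ETS word within 50 bp. The promoter of eEF1gamma, which encodes a translation elongation factor, held 1 ETS word at 3R:29219692-29220545 with a signal of 5180 and lies within the range of the 6 without being among them. The next non-ribosomal promoter with an ETS word below CG5805 was that of p53, the fly p53 tumour suppressor relative, at 3R:23053767-23054449 (signal 3146, rank 48).

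**Figure D3:**
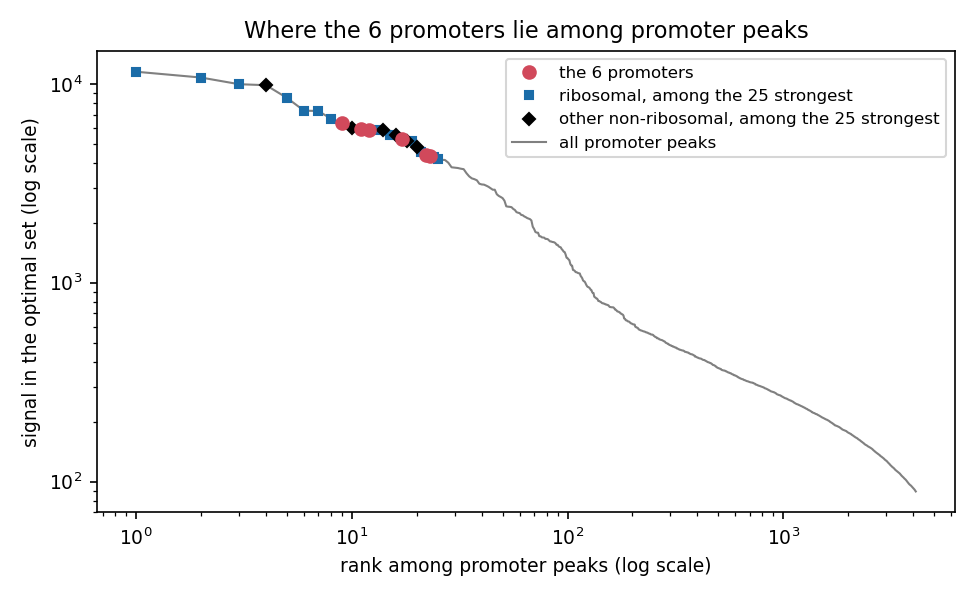
Signal in the optimal set (vertical, log scale) against rank among the 4118 promoter peaks (horizontal, log scale). Red circles are the 6 promoters, blue squares the ribosomal and black diamonds the other non-ribosomal promoters among the 25 strongest, and the grey line all promoter peaks; the red circles lie between signals of 4333 and 6353 and are interspersed with the other 2 kinds.

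The 25 promoter peaks of highest signal with a counterpart in all 3 replicates divided into the 6, another 6 at non-ribosomal genes and 13 at ribosomal protein genes. The median signal was 5567 for the 6, 5677 for the other non-ribosomal promoters and 6672 for the ribosomal ones. The other non-ribosomal genes were CG6966 (9839), Hsp83 (6012), which encodes the Hsp90 chaperone, Regnase-1 (5847), Nacalpha (5507), eEF1gamma (5180) and eEF5 (4806). Of the ribosomal promoters 1 held the ETS word, that of RpL13A, Dph4 and Spec2. Start sites of both strands, each within 500 bp of the summit, were found at 1 of the 6, at 0 of the other non-ribosomal promoters and at 9 of the 13 ribosomal ones, against 39.1% of all promoter peaks.

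The pattern over the 3 replicates was likened by the Euclidean distance between log2 relative signals, among 3069 promoter peaks found in all 3 replicates. Nearest to Alg3 was the promoter of CG3776 and RpL19 (distance 0.18), nearest to lace that of Dph4, RpL13A and Spec2 (0.0904), nearest to tzn Regnase-1 (0.0947), nearest to yps Nacalpha (0.127) and nearest to goe RpL22 (0.129). Of these 5 nearest promoters, that of Dph4, RpL13A and Spec2 held an ETS word within 50 bp and the other 4 held none. The distance compares levels at 3 points only.

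The 6 summits all lay upstream of the TSS of their gene, as did 82.4% of promoter summits relative to the nearest TSS. Other words known from fly core promoters were searched up to 100 bp from the summit, reading either strand. TATCGATA, the element bound by DREF, was present at Alg3 and at 15% of promoter peaks. CGATA, the end of that word, which BEAF-32 also recognises, was present at Alg3, lace, yps and goe and at 52.1% of promoter peaks. GGTCACAC, part of the fly core promoter element called Motif 1, was present at tzn, against 13% of promoter peaks, and with at most 1 mismatch at tzn and CG5805, against 29.7%. TATAAA was present at tzn and CG5805, against 27.3% of promoter peaks, and CAGCTG at Alg3, against 15.8%. No run of CACGTG (the E-box), GAGAGAG (bound by GAGA factor), CAGGTAG (bound by Zelda) or TGACTCA (the word of AP-1 factors) lay within 100 bp of any of the 6 summits. These words are rare at promoter peaks in general, at 3.57%, 2.87%, 0.704% and 1.58% of them in that order, so their absence from 6 promoters is close to the background. A match is a run of letters and was not taken as a bound site.

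The neighbourhoods of the 6 differed. At tzn the summit lay between divergent genes: the TSS of CG3698 on the opposite strand was 238 bp from the summit, so that gene shared the peak, and the 2 genes were 269 bp apart. Next downstream of tzn, 328 bp away, Spc105R, a kinetochore protein gene, had a peak of its own with a signal of 322.6 (rank 794). Thus 1 of the 6 peaks had start sites of 2 genes within 500 bp of its summit, that of tzn being the nearer at 32 bp.

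At CG5805 the gene upstream, 632 bp away on the opposite strand, was Ets96B, which encodes another protein with an ETS domain. Its TSS was 606 bp from the summit, outside the zone of 500 bp, and it had no promoter peak of its own. Downstream, CG13631 lay 13618 bp away with a peak of 237 (rank 1477), and CG42331 overlapped CG5805. Within 10000 bp of the peak of CG5805 there was no other peak of the optimal set. The nearest lay 15716 bp away at a start site of CG42331, with a signal of 103.6 (rank 4793).

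The peak of lace stood farthest from any other. In the optimal set the next peak was 234324 bp away, at yuri, with a signal of 100.2, and the signal of lace was 58.4 times as high. Its neighbours on both sides lay on its own strand, Tim17b2, which encodes a subunit of the import machinery of the mitochondrial inner membrane, 13581 bp upstream and Skadu 42500 bp downstream, and neither had a promoter peak.

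Alg3 lay among genes that carried weaker peaks. Sesn, which encodes sestrin, had its start 4040 bp from the summit of Alg3 and its strongest promoter peak had a signal of 442.1 (rank 435). Downstream, 35 bp from the end of Alg3 and on the opposite strand, l(2)dtl had a promoter peak of 236 (rank 1489), and CG5504 overlapped Alg3 on the opposite strand. The nearest other peak lay 2704 bp from that of Alg3 and had a signal of 177.6, and the signal of Alg3 was 35.8 times as high.

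At yps and goe the nearest genes upstream lay on the same strand. Upstream of yps, 336 bp away, Ir68b, a gene of the ionotropic receptor family, had no promoter peak, and downstream CG11560, 88 bp away on the opposite strand, had a weak one (109.5, rank 4537). Upstream of goe, 278 bp away, lay the integrin gene if, whose nearest TSS was 29087 bp from the summit, and 355 bp downstream lay CG32572. The genes CG32568, TwdlZ, TwdlY, TwdlX and Twdlalpha overlapped goe on the opposite strand. The signal of goe was 39.6 times and that of yps 48.3 times that of the nearest other peak. For tzn this ratio was 18.3 and for CG5805 it was 41.8.

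Genes of the pathways of Alg3 and lace, of the protein families of CG5805 and goe, and of the complexes known to hold the yps protein were examined for promoter peaks of any strength, with the 6 left out and no list for tzn. Of the 13968 protein-coding genes, 5097 had one (36.5%), with a median signal of 187.8. Among genes of N-glycan assembly, the pathway of Alg3, 16 of 22 had a promoter peak (72.7%, Wilson 95% interval 51.8 to 86.8), with a median signal of 172.6. The strongest were Stt3A (415.8) and Stt3B (387.1), catalytic subunits of the oligosaccharyltransferase, and Dpm3 (262.8) and Dpm2 (257.8), subunits of dolichol-phosphate mannose synthase. Alg10 and Alg12 were among those without one.

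Of the genes of sphingolipid synthesis, the pathway of lace, 9 of 11 had a promoter peak (81.8%, interval 52.3 to 94.9), with a median signal of 218.2. They included ifc, the dihydroceramide desaturase gene (409.5), Cerk, the ceramide kinase gene (260.2), Kdsr (224.4) and SMSr (218.7). Spt-I, which encodes the partner subunit of lace in serine palmitoyltransferase, had none in the optimal set, and neither had ORMDL.

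Of the mitochondrial carrier genes, the family of CG5805, 20 of 41 had a promoter peak (48.8%, interval 34.3 to 63.5), with a median of 210.0, and Shawn (1613), Bmcp (547.9), CG8026 (414.1) and Mtch (328.7) were the strongest. Ant2 and CG18418 had none. Of the M13 peptidase genes, the family of goe, 3 of 27 had one (11.1%, interval 3.85 to 28.1): Nepl8 (312.8), Nepl19 (95.5) and Nep1 (91.8). Nep2 and Nep3 were among those without. Of the genes whose products share mRNA-protein complexes with yps, 8 of 10 had one (80%, interval 49.0 to 94.3), with a median of 340.1, led by bel (962.6), an RNA helicase gene, tral (752.3), eIF4E1 (658.3) and sqd (462.9). Imp and me31B had none. The interval of the carriers held the share of all genes, that of the peptidases lay below it, and those of the other 3 lists lay above it. With a zone of 250 bp in place of 500 bp the interval of N-glycan assembly, 30.7 to 69.3, held the 32.0% of all genes, and that of the carriers, 32.1 to 61.3, lay just above it. Where a summit counts for the closest TSS alone, the interval of the peptidases, 3.85 to 28.1, held the 27.5% of all genes. The intervals cover counting over genes only, and no test of the lists was made. The lists were chosen with earlier results of these data known, so the intervals are a description only.

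**Figure D4:**
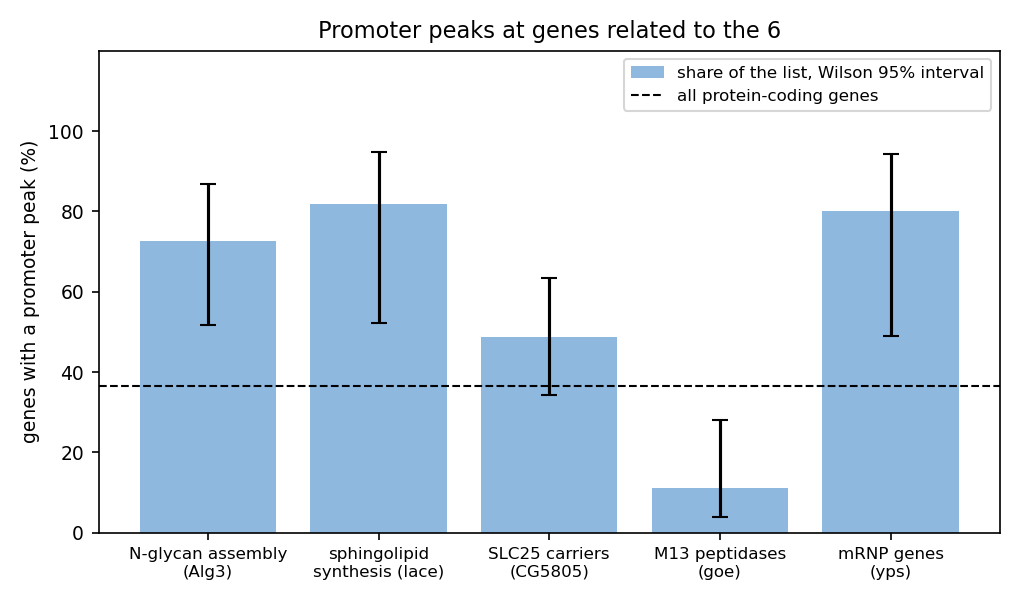
Share of genes with a promoter peak of the optimal set (vertical axis, percent) in 5 lists of genes related to Alg3, lace, CG5805, goe and yps, which are themselves left out. The lists were chosen with earlier results of these data known. Bars start at 0, whiskers are Wilson 95% intervals over genes and the dashed line is the share of all protein-coding genes, 36.5%; the bar of the M13 peptidases, 11.1%, is the only one below the line.

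Shares of the same lists in single replicates, taken over each replicate's 5595 strongest regions, varied by less than the distance between the extreme lists. They averaged 71.2% ± 6.94 for N-glycan assembly, 87.9% ± 5.25 for sphingolipid synthesis, 50.4% ± 2.82 for the carriers, 8.64% ± 5.66 for the peptidases and 80% ± 10 for the genes linked to yps, against 35.7% ± 0.957 for all protein-coding genes (SD, n = 3 for each). Each list kept its side of the share of all genes in these means. Spt-I, without a peak in the optimal set, had a start site within 500 bp of one of the strongest regions in replicates 1 and 2. Of the other genes named as without a peak, Alg10 had one in replicate 1, and Alg12, Ant2 and Imp in replicate 2. ORMDL, CG18418, Nep2, Nep3 and me31B had one in no replicate. Of the list genes named with a peak, Nepl19 had such a region in replicate 2 only and Nep1 in replicates 2 and 3. The others had it in all 3.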

How the data were processed

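ChIP-seq region lists of the narrowPeak type were used for 3 biological replicates of 1 group. Per the file headers, the authors compared ChIP with a control to give each region its signal. The unit of that signal is not stated, and single replicates have lower values than the optimal list. Each replicate has a deposited list of peaks with background (24391, 28843 and 29122 regions in replicates 1, 2 and 3), and the authors derived the optimal set of 5595 peaks with their test of reproducibility (IDR), per the file headers. The aligner, the caller with its version and the threshold of IDR were not given in the sources used here. Without read counts in the lists, depth is unknown. The dm3 lists and control libraries were not analysed here.

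Summits are the region's start plus the summit offset, written 1-based. A member's region in a replicate is the one whose summit is nearest, within 150 bp. Relative signal is the signal divided by the median of the replicate's 5595 strongest regions. Genes and start sites came from the Ensembl 115 annotation and sequence from NCBI, both Release 6 (dm6); region ends lay inside its chromosome lengths. Words were sought on both strands. Shares have Wilson 95% intervals. Replicates come from the labels, and nothing says whether embryos came from separate collections. No test was made, because the signal and the word chose the 6. The members and gene lists were chosen with earlier results of these data known. Named genes are the 6, genes near their summits, other non-ribosomal promoters among the 25 strongest, the promoters next in signal, the nearest in replicate pattern (that of CG5805 is not reported here), and up to 4 list genes with the strongest and 2 without a peak. A count of 7 list names had no unique match and were left out. The near-match of Motif 1, the core spacing of 6 bp and the base before the word were added after seeing the sequences. Scripts were tested on simulated data with planted words. Python 3.11.15, NumPy 2.4.6, pandas 2.3.3, SciPy 1.17.1 and matplotlib 3.10.9 were used.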

Additional observations from a re-analysis of the deposited data

How the results depend on the processing

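Of 51 alternatives, 33 left their value within its spread, its interval or, for counts, 1.5 times, and 18 moved it. The median relative signal of the 6 promoters, 33.9, became 125 when divided by the median of each replicate's full list; without each replicate in turn it was 33.4 to 34.3. The 7 ETS words became 2 within 25 bp of the summit, 3 as CCGGAAG and 13 as GGAA, and the 6 promoters with a word became 2 and 3 under the first 2 of these. The share of promoter peaks with a word, 3.62%, became 2.06% within 25 bp, 6.36% within 100 bp and 8.79% within 150 bp, and 0.801% with CCGGAAG, 15.4% with CGGAA and 51.2% with GGAA. The median distance between word and replicate summit, 35.5 bp, became 15.5 bp with GGAA, which adds nearer cores; without each replicate it was 34.5 to 36 bp. The N-glycan share, 72.7%, became 50% with a zone of 250 bp, 40.9% with the strongest 50% of peaks and 50% with the nearest TSS only, where all protein-coding genes had 32.0%, 22.1% and 27.5%. The M13 share, 11.1%, became 3.70% with the strongest 50% and 3.70% with peaks found in all 3 replicates, where all genes had 22.1% and 29.3%. The interval of N-glycan assembly held the share of all genes with the zone of 250 bp, and that of the M13 peptidases with the nearest TSS only. The interval of the carriers, which holds it as reported, lay above it with the zone of 250 bp, the strongest 50% and peaks of all 3 replicates. The intervals of the sphingolipid genes and the genes linked to yps lay above it under all 4 settings. By construction each of these 4 settings counts fewer peaks or start sites. No paired analysis was possible because there is 1 group and no test. Unknown depth limits every signal, and 3 replicates limit each SD.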
